A study of Mus musculus with 40 samples.

Results

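The 4 libraries described here measured the effect of a strong knockdown of Myh9 on the messenger RNA of cultured YUMM2.1 cells, a mouse melanoma line with Braf V600E, 1 deleted copy of Cdkn2a and a stabilized beta-catenin allele. They were chosen by their labels as the libraries of empty-vector (EV) cells with the scramble hairpin shNC (2 libraries) or with Myh9 hairpin 2, here called shM2 (2 libraries), out of 40 libraries in all. Both groups carried the same GFP-selected lentiviral empty vector, kept their own Bmal1 gene (the Arntl label reads control) and received a puromycin-selected pLKO.1 hairpin virus, so they differed in the hairpin. In the same experiment, 2 libraries of EV cells with Myh9 hairpin 4 (shM4) and pairs of shNC and shM2 libraries from YUMM2.1 cells with ectopic wild-type Bmal1 (WT) or with dHLH, a Bmal1 that lacks its DNA-binding domain, served for comparison. The cells were pools of transduced cells, and the labels name 2 replicates of each group without saying whether these were separate cultures, so that p-values may measure a technical spread.

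The 4 libraries held 7534921 to 9232728 counts, so that 1 CPM (a count scaled to its library's total, with TMM factors) stood for about 7.53 to 9.23 counts. Of the 51789 genes in the table, 14848 passed a filter on low counts and were tested. Identity markers were only partly present: Sox10, a neural crest and melanocyte factor, was measured at 320.0 and 324 CPM with shNC and 186 and 176 CPM with shM2, while the pigment genes Tyrp1, Dct, Pmel and Mlana had 0 counts in all 4 libraries. Of the other cell types, 8 immune markers (among them Ptprc, Cd3e, Itgam, Adgre1, Csf1r, Cd68 and Lyz2) summed to 1.93 to 3.95 CPM and epithelial markers (Epcam, Krt5, Krt14, Krt8, Krt18, Cdh1) to 0.359 to 0.870 CPM in a library.

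Myh9 encodes the heavy chain of non-muscle myosin IIA, the motor that pulls on actin filaments and gives cells their contractile tension. The actin it binds also controls transcription: free actin monomers hold the coactivators Mrtfa and Mrtfb (also named Mkl1 and Mkl2) away from the serum response factor Srf, and polymerized actin releases them. Melanoma cells can move between a melanocytic state marked by Sox10 and a mesenchymal state marked by Sox9, by matrix genes and by AP-1 factors, and the experiment asked how loss of Myh9 bears on that balance.

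The targeted gene was lower in both knockdown libraries. Myh9 (ENSMUSG00000022443, GRCm38 chr15:77760587-77842175, minus strand) was measured at 682 and 645 CPM with shNC and 223 and 241 CPM with shM2, a 2.86-fold difference of the means (log2 fold change of -1.51 ± 0.10 (SE), adjusted p = 4.94e-08). The groups did not overlap. Hairpin 4 left 479 and 448 CPM in the same cells (log2 fold change of -0.52 ± 0.09 (SE), adjusted p = 0.005). The level under shM2 was lower than that under shM4 in a direct comparison (log2 fold change of -0.998 ± 0.10 (SE), adjusted p = 2.29e-05). Adjusted p-values here and throughout come from the quasi-likelihood F test of edgeR, adjusted over all tested genes by the Benjamini-Hochberg method. Positive log2 fold changes mean a higher level with the knockdown unless said otherwise.

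**Figure D1:**
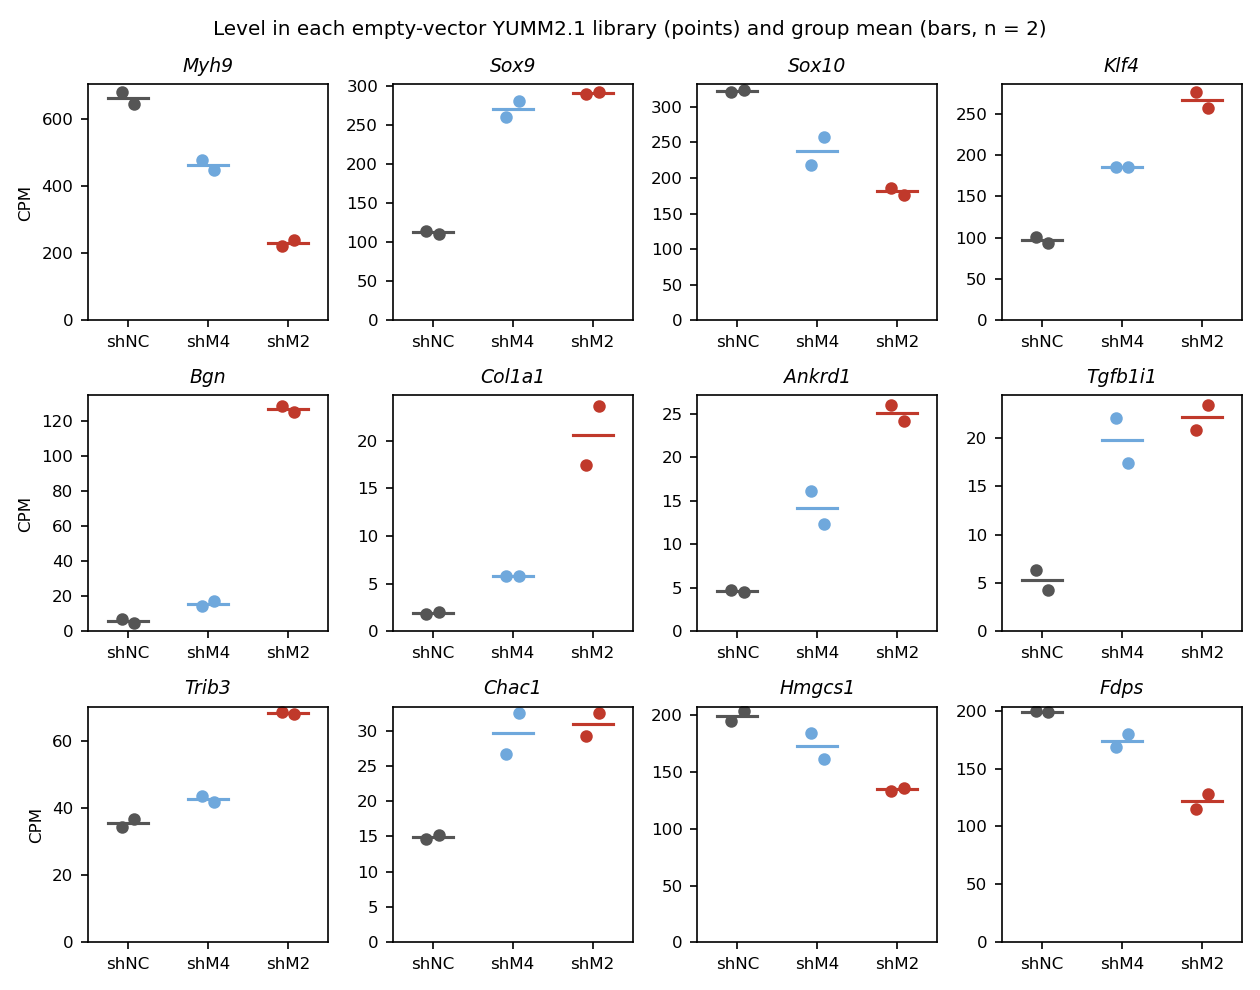
CPM (vertical axes, from 0) of 12 genes in each EV library with shNC, shM4 or shM2; points are libraries and bars are group means. Myh9 falls from shNC over shM4 to shM2, Bgn and Col1a1 are far higher with shM2 than in either other group, and Sox9 and Tgfb1i1 lie at like heights with both hairpins.

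Between shM2 and shNC, 988 genes passed the threshold of an adjusted p under 0.05, which is 6.65% of those tested; 623 rose (4.2%) and 365 fell (2.46%). The median absolute log2 fold change of these genes was 0.841, and the median over all 14848 genes was 0.00711. With only 2 libraries a group the count rests on each of them: leaving out any 1 of the 4 gave between 337 and 442 genes (337 without shM2 replicate 1 or shNC replicate 2, 364 without shNC replicate 1 and 442 without shM2 replicate 2). A fit of these 4 libraries alone, which changed both the estimate of the spread and the genes tested (13193), gave 2163 genes, 1024 higher and 1139 lower. A library left alone in its group was taken to vary like the other groups. Genes are said below to hold throughout when they passed in each of those 4 fits.

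**Figure D2:**
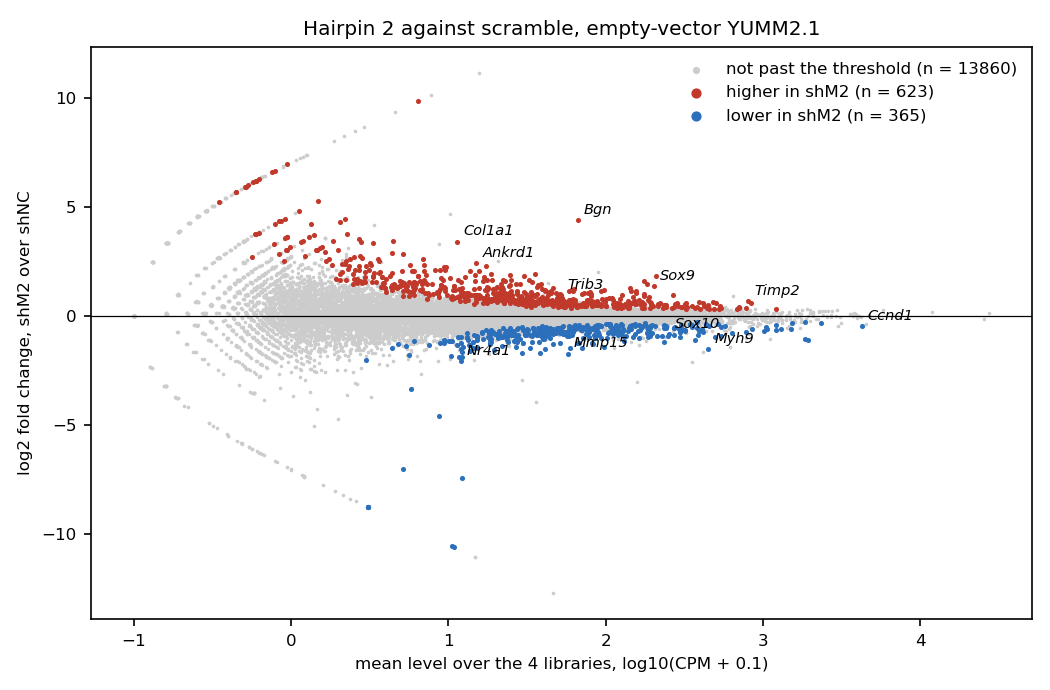
Log2 fold change of shM2 over shNC (vertical axis) against the mean level over the 4 libraries (horizontal axis, log10 of CPM + 0.1) for the 14848 tested genes; red genes rose, blue genes fell and grey genes did not pass the threshold. Bgn and Col1a1 lie above the other labelled genes, and the curved edges are genes with 0 counts in 1 of the groups.

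Among protein-coding genes whose counts averaged 50 or more and whose groups lay apart, the 10 with the largest rise were Bgn, Col1a1, Mgll, Ankrd1, Ptgfrn, Cavin2, Col6a3, Kcnip1, Pdpn and Dock8. Bgn (GRCm38 chrX:73483602-73495933, plus strand), which encodes the matrix proteoglycan biglycan, was at 7.30 and 4.89 CPM with shNC and 128 and 125 CPM with shM2. This was a 20.8-fold difference of the means (log2 fold change of 4.38 ± 0.19 (SE), adjusted p = 2.26e-10). Col1a1 (chr11:94936224-94953042, plus strand), a chain of type I collagen, was at 1.79 and 2.07 CPM with shNC and 17.4 and 23.6 CPM with shM2 (log2 fold change of 3.40 ± 0.19 (SE), adjusted p = 7.12e-09), so that the lower shM2 library was still far above both controls. Ankrd1 (chr19:36111961-36120099, minus strand), a nuclear ankyrin-repeat protein induced through YAP and by strain in muscle, was at 4.79 and 4.57 CPM with shNC and 26.1 and 24.1 CPM with shM2 (log2 fold change of 2.42 ± 0.18 (SE), adjusted p = 2.37e-07). Col6a3, a type VI collagen chain, was at 2.63 and 3.70 CPM with shNC and 14.1 and 16.5 CPM with shM2 (log2 fold change of 2.26 ± 0.28 (SE), adjusted p = 5.50e-05). The 10 genes held throughout.

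The remaining rises of that group came from genes of several kinds. Mgll, a lipase for monoacylglycerols, was at 1.44 and 2.39 CPM with shNC and 12.4 and 11.04 CPM with shM2 (log2 fold change of 2.60 ± 0.24 (SE), adjusted p = 2.59e-06). Cavin2, a coat protein of caveolae, was at 6.58 and 5.22 CPM with shNC and 30.8 and 26.4 CPM with shM2 (log2 fold change of 2.28 ± 0.20 (SE), adjusted p = 1.94e-06). Pdpn, the mucin-like surface protein podoplanin, was at 3.35 and 2.72 CPM with shNC and 13.5 and 12.7 CPM with shM2 (log2 fold change of 2.11 ± 0.28 (SE), adjusted p = 0.000116). Ptgfrn, Kcnip1 and Dock8, which encode a tetraspanin partner, a potassium channel interacting protein and an exchange factor for Cdc42, rose 5.03-, 4.84- and 4.30-fold by their means, from 1.85 to 3.83 CPM in the controls to 10.6 to 17.2 CPM. Levels this low in the controls rest on 17 to 34 counts a library. Mgll, Ptgfrn, Cavin2, Col6a3, Kcnip1 and Dock8 overlap another annotated gene, and since the strand of counting is not given in the sources used here, their counts may include reads of that neighbour.

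The 10 largest falls by the same rule were those of Nr4a1, Mest, Pxdc1, Syvn1, Mmp15, Amd2, Hes1, Col27a1, Acvr1 and Unc50. Mmp15, a membrane-anchored matrix metalloproteinase, was at 91.9 and 84.3 CPM with shNC and 25.1 and 28.02 CPM with shM2, a 3.31-fold difference of the means (log2 fold change of -1.73 ± 0.20 (SE), adjusted p = 2.85e-05). Col27a1, a fibrillar collagen, was at 24.6 and 16.6 CPM with shNC and 6.03 and 7.52 CPM with shM2 (log2 fold change of -1.602 ± 0.28 (SE), adjusted p = 0.00203). These held throughout. Nr4a1, an orphan nuclear receptor and immediate early gene, was at 20.8 and 17.6 CPM with shNC and 3.72 and 5.34 CPM with shM2 (log2 fold change of -2.08 ± 0.57 (SE), adjusted p = 0.0356). Hes1, a transcriptional repressor downstream of Notch, was at 46.5 and 42.7 CPM with shNC and 11.4 and 16.1 CPM with shM2 (log2 fold change of -1.69 ± 0.37 (SE), adjusted p = 0.00987). Syvn1, a ubiquitin ligase of the endoplasmic reticulum, was at 18.1 and 14.1 CPM with shNC and 4.62 and 4.49 CPM with shM2 (log2 fold change of -1.82 ± 0.42 (SE), adjusted p = 0.0134). Acvr1, a type I receptor for bone morphogenetic proteins, was at 31.9 and 25.8 CPM with shNC and 8.86 and 10.8 CPM with shM2 (log2 fold change of -1.55 ± 0.37 (SE), adjusted p = 0.0177).

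Those falls depended on the library more than the rises did. Mest, Pxdc1, Amd2, Acvr1, Unc50 and Nr4a1 passed in none of the 4 fits that left out a library, with adjusted p up to 0.294 (Unc50, without shM2 replicate 1), and Hes1 and Syvn1 passed in 1 of the 4. In a fit of all 40 libraries, Nr4a1, Pxdc1, Syvn1, Amd2, Acvr1 and Unc50 missed the threshold too (adjusted p of 0.0556 for Pxdc1 to 0.202 for Amd2). Amd2 is a near-identical copy of Amd1, among which reads are divided by estimation, so its fold change is uncertain. Mest, Pxdc1, Syvn1, Col27a1 and Acvr1 overlap another annotated gene.

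Extracellular matrix genes changed in both directions, and more of them were called than in the table as a whole. Of 21 tested collagens and proteoglycans, 6 rose and 2 fell (38.1% called, against 6.65% of all genes) with a median log2 fold change of 0.06. Beside Bgn, Col1a1 and Col6a3, the large proteoglycan Vcan was at 0.359 and 0.979 CPM with shNC and 5.52 and 3.76 CPM with shM2 (log2 fold change of 2.74 ± 0.48 (SE), adjusted p = 0.00186), its controls holding 3 and 9 counts. The type VI chain Col6a2 was at 7.06 and 4.68 CPM with shNC and 14.1 and 12.01 CPM with shM2 (log2 fold change of 1.16 ± 0.22 (SE), adjusted p = 0.00339). Col8a1, a short-chain collagen, was at 219.6 and 199 CPM with shNC and 268 and 287 CPM with shM2 (log2 fold change of 0.41 ± 0.10 (SE), adjusted p = 0.02). In the other direction, the fibrillar collagen gene Col11a1 was at 119 and 113 CPM with shNC and 48.9 and 48.3 CPM with shM2 (log2 fold change of -1.25 ± 0.15 (SE), adjusted p = 3.52e-05). Col5a2, of the same class, was at 270.1 and 232 CPM with shNC and 117 and 144 CPM with shM2 (log2 fold change of -0.94 ± 0.19 (SE), adjusted p = 0.00545). Col1a2, the partner chain of Col1a1, was at 2.75 and 1.85 CPM with shNC and 7.19 and 7.16 CPM with shM2 and did not pass (log2 fold change of 1.65 ± 0.49 (SE), adjusted p = 0.0531). Bgn, Col1a1, Col6a3, Vcan and Col11a1 held throughout. Col8a1 passed in none of the 4 left-out fits (adjusted p up to 0.257, without shNC replicate 2). Col6a2 and Col5a2 passed in 2 (up to 0.0899 without shNC replicate 2 and 0.108 without shM2 replicate 1).

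**Figure D3:**
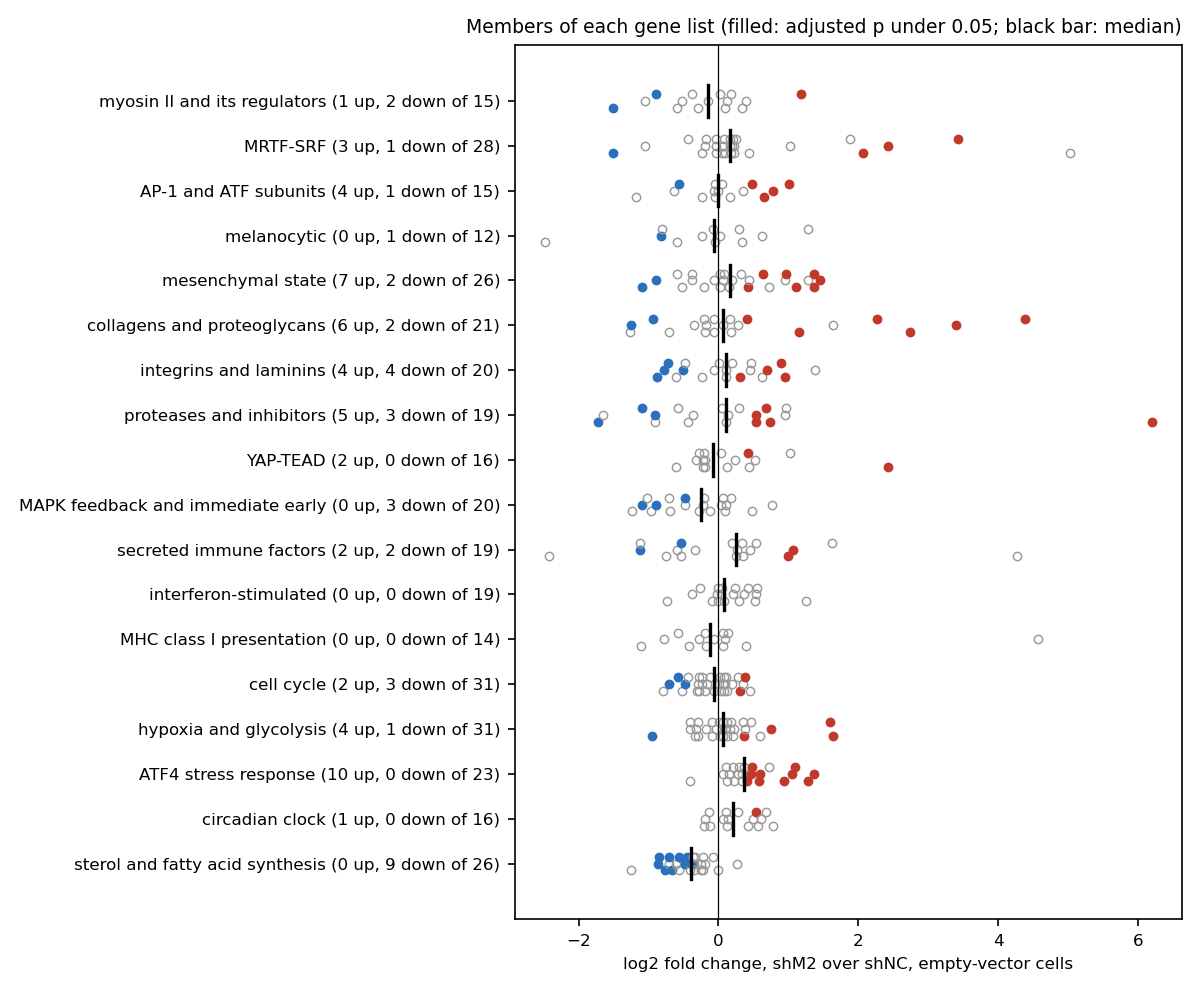
Log2 fold change of shM2 over shNC (horizontal axis) for each tested member of 18 gene lists; filled points passed the threshold (red higher, blue lower), open points did not, and black bars are list medians. The ATF4 stress response and the sterol and fatty acid list each have calls in 1 direction only, with medians of 0.37 and -0.39, while the matrix lists have calls in both.

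Matrix receptors and proteases were likewise mixed. Of 20 tested integrins and laminins, 4 rose (among them Itga3, Itgb5 and Lamb1) and 4 fell (Lama4, Itga4, Itga1, Itgb3), with a median of 0.11. The share of this list called lay above the 6.65% of all genes (4.2% higher and 2.46% lower). Lama4, a laminin chain of vessel and muscle basement membranes, was at 253 and 245 CPM with shNC and 150.5 and 140.2 CPM with shM2 (log2 fold change of -0.78 ± 0.10 (SE), adjusted p = 0.000122) and held throughout. Itga3, a laminin-binding integrin subunit, was at 36.01 and 32.5 CPM with shNC and 67.8 and 64.5 CPM with shM2 (log2 fold change of 0.95 ± 0.18 (SE), adjusted p = 0.00342) and missed the threshold without shNC replicate 2 (adjusted p = 0.0676). Itga4, a subunit that binds fibronectin and Vcam1, was at 214 and 237 CPM with shNC and 174 and 143 CPM with shM2 (log2 fold change of -0.51 ± 0.12 (SE), adjusted p = 0.0138) and missed it in 2 of the 4 fits (up to 0.17, without shM2 replicate 2). Itgb5, Itga1, Itgb3 and Lamb1 passed in none of those fits, with adjusted p up to 0.291 (Itgb3, without shM2 replicate 1).

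Of 19 tested proteases and protease inhibitors, 5 rose and 3 fell (42.1% called, median 0.11). The metalloproteinase inhibitors rose together: Timp1 was at 172 and 186 CPM with shNC and 254 and 267 CPM with shM2, Timp2 at 635 and 595 CPM with shNC and 1029 and 935 CPM with shM2 and Timp3 at 41.99 and 45.9 CPM with shNC and 76.1 and 70.8 CPM with shM2. Their log2 fold changes were 0.54 ± 0.10, 0.67 ± 0.14 and 0.74 ± 0.11 (SE), with adjusted p of 0.00209, 0.00517 and 0.000314. Timp3 held throughout, Timp1 missed without shNC replicate 1 (adjusted p = 0.0608) and Timp2 in 2 fits (up to 0.0779, without shNC replicate 2). The inhibitor Serpine2 was at 36.7 and 43.9 CPM with shNC and 60.7 and 56.9 CPM with shM2 (adjusted p = 0.0391) and passed in no left-out fit (up to 0.314, without shNC replicate 1). Mmp9, the gelatinase B gene, had 0 counts in both shNC libraries and 6 and 10 counts in the shM2 libraries (adjusted p = 0.0135). It passed in 1 of the 4 left-out fits (up to 0.111, without shNC replicate 2). Beside Mmp15, the falls were those of Adamts1, a secreted proteoglycan-cleaving protease, at 324 and 324 CPM with shNC and 171 and 176 CPM with shM2 (log2 fold change of -0.90 ± 0.12 (SE), adjusted p = 0.000188), which held throughout, and of Adam12. The latter, a membrane-bound protease, was at 22.9 and 26.8 CPM with shNC and 8.60 and 14.6 CPM with shM2 (adjusted p = 0.0377, and up to 0.345 without shM2 replicate 1).

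The balance of the melanoma state genes differed between the groups. Sox9 (GRCm38 chr11:112782224-112787760, plus strand), the mesenchymal state factor, was at 115 and 111 CPM with shNC and 290.2 and 293 CPM with shM2, a 2.58-fold difference (log2 fold change of 1.37 ± 0.11 (SE), adjusted p = 4.83e-07). In a fit of all 40 libraries of the series, Sox9 kept a log2 fold change of 1.36 but missed the threshold (adjusted p = 0.0552). Sox10 was 1.78-fold lower by the means given above (log2 fold change of -0.83 ± 0.10 (SE), adjusted p = 7.59e-05). Klf4, a zinc-finger factor of stemness and epithelial differentiation, was at 101 and 93.5 CPM with shNC and 276 and 257 CPM with shM2 (log2 fold change of 1.46 ± 0.12 (SE), adjusted p = 9.40e-07). Snai2, a repressor of epithelial genes, was at 15.3 and 18.9 CPM with shNC and 35.7 and 38.5 CPM with shM2 (log2 fold change of 1.11 ± 0.14 (SE), adjusted p = 7.42e-05). Fn1, the matrix glycoprotein fibronectin, was at 181 and 182 CPM with shNC and 353 and 357 CPM with shM2 (log2 fold change of 0.97 ± 0.09 (SE), adjusted p = 2.59e-06). Ngfr, the neural crest receptor CD271, moved the other way, from 507 and 496 CPM with shNC to 239.8 and 230.3 CPM with shM2 (log2 fold change of -1.09 ± 0.11 (SE), adjusted p = 1e-05). All of these genes held throughout.

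Over the whole mesenchymal list, 7 of 26 tested members rose (Sox9, Klf4, Fn1, Snai2, Axl, Lmo1, Zeb1), 2 fell (Ngfr and Postn) and 17 did not pass. That was 34.6% called, against 6.65% of all genes, with a median log2 fold change of 0.17. The receptor tyrosine kinase Axl was at 615 and 589 CPM with shNC and 799 and 819 CPM with shM2 (log2 fold change of 0.43 ± 0.09 (SE), adjusted p = 0.00849). Zeb1, another repressor of epithelial genes, was at 38.2 and 42.6 CPM with shNC and 65.5 and 59.9 CPM with shM2 (log2 fold change of 0.63 ± 0.15 (SE), adjusted p = 0.0142). Postn, the matrix protein periostin, was at 54.5 and 54.5 CPM with shNC and 31.2 and 27.3 CPM with shM2 (log2 fold change of -0.90 ± 0.18 (SE), adjusted p = 0.0052). Axl passed in none of the left-out fits (up to 0.117, without shNC replicate 2), Zeb1 and Lmo1 in 1 (up to 0.153 and 0.13) and Postn in 3 (up to 0.0746, without shM2 replicate 2). Sox9 is a gene that the study names for this knockdown in the same libraries, so its direction is not independent evidence.

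Of 23 melanocytic genes, 10 had no count in the 4 libraries and 12 were tested, of which only Sox10 passed. That was 8.33% called, beside 6.65% of all genes. At an unadjusted edgeR p under 0.05 the count was 6 of the 12, and DESeq2 called 4. Of all 14848 genes, the corresponding counts were 3128 and 1171. Mitf, the master factor of melanocytes, was at 15.8 and 14.1 CPM with shNC and 24.6 and 21.6 CPM with shM2 (adjusted p = 0.0791). Erbb3, a neuregulin receptor under Sox10 control, was at 38.8 and 32.2 CPM with shNC and 19.9 and 20.5 CPM with shM2 (adjusted p = 0.0504). Neither of the 2 genes passed the test. Among markers of other cells, the fibroblast list summed to 10.4 to 12.4 CPM with shNC and 30.3 to 38.1 CPM with shM2, with Col1a1 as the called member, while Thy1 and Lum were at 0 and Dcn at 0 to 0.12 CPM. Of the 4 tested fibroblast markers, 3 had a positive log2 fold change, the median was 0.84, and DESeq2 called 2. The endothelial list summed to 7.83 to 10.5 CPM with shNC and 16.2 to 18.7 CPM with shM2, with Cdh5, the endothelial cadherin, as the called member. Cdh5 was at 3.47 and 2.07 CPM with shNC and 8.73 and 10.9 CPM with shM2 (log2 fold change of 1.83 ± 0.28 (SE), adjusted p = 0.000385). The other tested member of that list had a log2 fold change of 0.293 and did not pass. Tek was at 0 and Kdr at 0 to 0.12 CPM in the 4 libraries. The part of such cells in the matrix results was not tested beyond these levels.

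Of 28 tested MRTF-SRF genes, 3 rose and 1 fell, the latter Myh9 itself (14.3% called, beside 6.65% of all genes), and 10 had an unadjusted p under 0.05. The median log2 fold change was 0.16. Beside Ankrd1, Tgfb1i1, a focal adhesion adaptor also called Hic-5, was at 6.34 and 4.24 CPM with shNC and 20.8 and 23.4 CPM with shM2 (log2 fold change of 2.07 ± 0.21 (SE), adjusted p = 6.39e-06) and held throughout. Tpm2, a tropomyosin of smooth muscle actin filaments, was at 0.359 and 0 CPM with shNC and 1.80 and 2.18 CPM with shM2, the controls holding 3 and 0 counts (adjusted p = 0.0121, and up to 0.143 without shNC replicate 2). The regulators themselves did not pass: Srf was at 31.1 and 34.4 CPM with shNC and 31.4 and 32.3 CPM with shM2, Mrtfa at 15.7 and 15.7 CPM with shNC and 12.7 and 19.8 CPM with shM2 and Mrtfb at 46.4 and 41.6 CPM with shNC and 51.6 and 51.3 CPM with shM2, with adjusted p of 0.941, 0.922 and 0.307. Of 16 tested YAP-TEAD genes, Ankrd1 and Axl rose and none fell (12.5% called).

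Among 15 tested genes of myosin II and its regulators, 1 rose (Mylk) and 2 fell (Myh9 and Rnd3). The share called was above the 6.65% of all genes, but it includes Myh9. Myh9 is the target of the hairpin, so its fall was set by the design, which leaves Mylk and Rnd3 as the informative calls. Mylk, the kinase that activates myosin by phosphorylating its light chain, was at 9.21 and 12.2 CPM with shNC and 28.9 and 19.6 CPM with shM2 (log2 fold change of 1.18 ± 0.24 (SE), adjusted p = 0.00583). Rnd3, a small GTPase that opposes contractility, was at 28.8 and 36.1 CPM with shNC and 15.4 and 19.6 CPM with shM2 (log2 fold change of -0.89 ± 0.25 (SE), adjusted p = 0.0447). Mylk passed in 2 of the 4 left-out fits (up to 0.129, without shM2 replicate 1) and Rnd3 in none (up to 0.314, without shM2 replicate 1). Myh10, the heavy chain of the related myosin IIB, was at 51.2 and 56.98 CPM with shNC and 73.7 and 69.1 CPM with shM2 and did not pass (log2 fold change of 0.40 ± 0.15 (SE), adjusted p = 0.118), and neither did Rock1, Rock2 or Rhoa, the kinases and GTPase upstream.

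Of 15 tested AP-1 and ATF subunits, 4 rose (Jdp2, Atf5, Atf6, Atf4) and Atf2 fell. That was 33.3% called, against 6.65% of all genes. The AP-1 subunits Jun, Junb and Jund did not pass. Jun was at 213 and 213 CPM with shNC and 212 and 198 CPM with shM2 (adjusted p = 0.857), Junb at 23.6 and 20.99 CPM with shNC and 22.97 and 22.9 CPM with shM2 (adjusted p = 0.933) and Jund at 68.9 and 63.9 CPM with shNC and 83.4 and 86.2 CPM with shM2 (adjusted p = 0.268). Jund passed in the fits of 8 libraries and of the 4 libraries alone (log2 fold change of 0.36 in each, adjusted p of 0.0207 and 0.024). Jdp2, a Jun-dimerizing repressor, was at 22.01 and 18.9 CPM with shNC and 42.6 and 40.03 CPM with shM2 (log2 fold change of 1.01 ± 0.18 (SE), adjusted p = 0.00261). Atf5 and Atf6, factors of the stress responses of mitochondria and the endoplasmic reticulum, were at 69.6 and 77.6 CPM with shNC and 137 and 117 CPM with shM2 and at 38.8 and 36.5 CPM with shNC and 63.01 and 54.8 CPM with shM2 (log2 fold changes of 0.78 ± 0.15 and 0.65 ± 0.13, SE, adjusted p of 0.00359 and 0.00611). Each of the 5 calls was lost in at least 1 left-out fit, with the highest adjusted p at 0.0569 for Jdp2 (without shNC replicate 2), 0.0721 for Atf5, 0.105 for Atf6, 0.311 for Atf4 (these 3 without shM2 replicate 1) and 0.378 for Atf2 (without shNC replicate 1).

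Several genes of the amino acid and stress response rose. Atf4, whose translation increases when the initiation factor eIF2 is phosphorylated and which then induces genes of amino acid supply, was at 365 and 383 CPM with shNC and 556 and 486 CPM with shM2 (log2 fold change of 0.48 ± 0.13 (SE), adjusted p = 0.0363). Of 23 tested genes of the ATF4 response, 10 rose, none fell and 13 did not pass (43.5% called), 22 had a positive log2 fold change, and the median was 0.37. Trib3, a pseudokinase, was at 34.3 and 36.9 CPM with shNC and 68.7 and 68.2 CPM with shM2 (log2 fold change of 0.94 ± 0.14 (SE), adjusted p = 0.000317). Chac1, which degrades glutathione, was at 14.6 and 15.2 CPM with shNC and 29.3 and 32.5 CPM with shM2 (log2 fold change of 1.05 ± 0.19 (SE), adjusted p = 0.00221). Nupr1, a small stress-induced nuclear protein, was at 10.4 and 10.4 CPM with shNC and 25.02 and 25.5 CPM with shM2 (log2 fold change of 1.27 ± 0.14 (SE), adjusted p = 2.82e-05). These 3 held throughout.

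The other rises of the response covered amino acid charging, one-carbon metabolism and transport. Sars, the seryl-tRNA synthetase, was at 389 and 408 CPM with shNC and 632 and 575 CPM with shM2 (log2 fold change of 0.60 ± 0.11 (SE), adjusted p = 0.00316). The mitochondrial folate enzymes Shmt2 and Mthfd2 were at 182 and 174 CPM with shNC and 251 and 281 CPM with shM2 and at 236 and 248 CPM with shNC and 314 and 356 CPM with shM2, with log2 fold changes of 0.58 ± 0.11 and 0.47 ± 0.12 (SE) and adjusted p of 0.00339 and 0.0184. Sesn2, an inhibitor of mTORC1, was at 15.4 and 11.8 CPM with shNC and 27.9 and 30.1 CPM with shM2 (log2 fold change of 1.09 ± 0.24 (SE), adjusted p = 0.0116). Slc7a1, a transporter of cationic amino acids, Vldlr and Stc2 had log2 fold changes of 0.41, 0.47 and 1.37. Between 4 and 6 of the list's calls remained in number when 1 library was left out. Slc7a1, Vldlr and Stc2 passed in none of those fits (up to 0.31, Stc2 without shNC replicate 2), Sesn2 and Mthfd2 in 1 (up to 0.151 and 0.158), Shmt2 in 2 (0.0721) and Sars in 3 (0.0552).

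The promoters of these genes were searched for an element bound by ATF4 with C/EBP partners, TGATGNAA, on both strands of RefSeq windows from 250 bases before to 50 after the start site. It was present in 8 of the 20 list members with a window, against 2.83% of all tested genes with one, and in 4 of the 10 that rose. The list consists of known ATF4 targets, so the share is a description of the list. The 4 sites among the risen genes are printed 5′ to 3′ on the strand of the gene, with the element in capitals. The sites of Trib3, Nupr1 and Vldlr lie in annotated exons and are shown with 10 bases on each side, while that of Chac1 is shown with the exon-free stretch around it.
Trib3 (GRCm38 chr2:152344029-152344056, minus strand): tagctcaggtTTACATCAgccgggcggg
Chac1 (chr2:119350992-119351116, plus strand): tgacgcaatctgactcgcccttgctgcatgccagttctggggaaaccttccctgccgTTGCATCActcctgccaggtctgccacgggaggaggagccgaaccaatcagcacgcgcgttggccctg
Nupr1 (chr7:126625563-126625590, minus strand): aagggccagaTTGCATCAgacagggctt
Vldlr (chr19:27216810-27216837, plus strand): gcagcaatagTTGCATCAgcgctcctag
All 4 hold the element on the opposite strand, so that the capitals read as its reverse complement. The element of Chac1 begins 193 bases before the start site, that of Vldlr 200 and that of Nupr1 110, while that of Trib3 begins at base 15 of the transcript. The letters mark a match, not a site shown to be bound.

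Several genes of sterol and fatty acid synthesis fell. Of 26 tested genes, 9 fell, none rose and 17 did not pass (34.6% called), 25 had a negative log2 fold change, and the median was -0.39, against a table in which 50.6% of genes had a positive value. Hmgcs1, which makes HMG-CoA at the entry to the mevalonate pathway, was at 195 and 204 CPM with shNC and 133 and 136 CPM with shM2 (log2 fold change of -0.57 ± 0.10 (SE), adjusted p = 0.00299). Fdps, the farnesyl diphosphate synthase, was at 199 and 198 CPM with shNC and 116 and 128 CPM with shM2 (log2 fold change of -0.71 ± 0.10 (SE), adjusted p = 0.00027). Elovl6, an elongase of saturated fatty acids, was at 39.4 and 40.9 CPM with shNC and 21.7 and 22.2 CPM with shM2 (log2 fold change of -0.87 ± 0.15 (SE), adjusted p = 0.00203). Hmgcs1, Fdps and Elovl6 held throughout.

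Other genes that fell were Cyp51 and Sc5d of the last steps of cholesterol synthesis, Acly, which supplies acetyl-CoA, and Insig1, which retains the sterol sensor in the endoplasmic reticulum. Their log2 fold changes were -0.46, -0.48, -0.38 and -0.77. Insig1 passed in 2 left-out fits and the other 3 in none, with adjusted p up to 0.257 (Sc5d, without shNC replicate 1). The sterol regulatory element TCACNCCAC was found, on either strand, in the window of Hmgcs1 alone among the 6 called members with a window and in 1.4% of all tested genes. It stands in capitals in the exon-free stretch before the gene, beginning 137 bases from the start site.
Hmgcs1 (GRCm38 chr13:119690154-119690282, plus strand): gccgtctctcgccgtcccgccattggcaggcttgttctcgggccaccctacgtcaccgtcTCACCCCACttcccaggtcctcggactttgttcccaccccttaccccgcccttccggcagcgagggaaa

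Of 20 tested MAPK feedback and immediate early genes, 3 fell and none rose (2.46% of all genes fell), with a median of -0.25, and 17 did not pass. Phlda1, a pleckstrin-like protein induced by ERK, was at 282 and 268 CPM with shNC and 134 and 160.4 CPM with shM2 (log2 fold change of -0.90 ± 0.13 (SE), adjusted p = 0.000276) and held throughout. Egr1, an immediate early factor, was at 30.1 and 33.4 CPM with shNC and 15.8 and 14.1 CPM with shM2 (log2 fold change of -1.09 ± 0.24 (SE), adjusted p = 0.00966). Ccnd1, the G1 cyclin D1, was at 5067 and 4785 CPM with shNC and 3314 and 3760 CPM with shM2 (log2 fold change of -0.48 ± 0.11 (SE), adjusted p = 0.0163). Both passed in 1 of the 4 left-out fits (up to 0.0963 without shM2 replicate 2 and 0.213 without shM2 replicate 1). Dusp6, the phosphatase that switches off ERK, was at 239 and 222 CPM with shNC and 94.8 and 133 CPM with shM2 and did not pass (log2 fold change of -1.02 ± 0.31 (SE), adjusted p = 0.06).

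Proliferation genes showed no common direction. Of the tested cell cycle genes 16.1% were called, against 6.65% of all genes. Of 31 cell cycle genes, 2 rose (E2f1, Top2a) and 3 fell (Mcm4, Ccna2, Ccnd1), with a median of -0.06, and none of the 5 held throughout (up to 0.343, Ccna2 without shNC replicate 1). The proliferation marker Mki67 was at 500.2 and 532 CPM with shNC and 588 and 529 CPM with shM2 (log2 fold change of 0.11 ± 0.11 (SE), adjusted p = 0.611). Of 31 tested hypoxia and glycolysis genes, 4 rose and Tpi1 fell (16.1% called), with a median of 0.07. Egln3, an oxygen-dependent prolyl hydroxylase induced by hypoxia, was at 10.8 and 6.31 CPM with shNC and 23.9 and 28.9 CPM with shM2 (log2 fold change of 1.63 ± 0.22 (SE), adjusted p = 0.000137). Adm, the peptide adrenomedullin, was at 7.06 and 9.24 CPM with shNC and 24.00 and 25.6 CPM with shM2 (adjusted p = 0.000837). Ndrg1, a stress-induced growth suppressor, was at 15.2 and 15.7 CPM with shNC and 25.3 and 26.9 CPM with shM2 (log2 fold change of 0.76 ± 0.13 (SE), adjusted p = 0.00175). Those 3 held throughout, while Bnip3 and Tpi1 passed in no left-out fit (up to 0.258 without shNC replicate 2 and 0.26 without shM2 replicate 1).

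Among 16 tested clock genes, the repressor Nr1d2 alone passed, at 33.7 and 35.7 CPM with shNC and 51.8 and 48.5 CPM with shM2 (log2 fold change of 0.53 ± 0.15 (SE), adjusted p = 0.0411), and in no left-out fit (up to 0.264, without shM2 replicate 1). Arntl, the Bmal1 gene, was at 30.4 and 25.99 CPM with shNC and 24.1 and 25.4 CPM with shM2 (adjusted p = 0.603), and did not pass. The share of clock genes called was 6.25%, close to the 6.65% of all genes.

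Of 19 tested secreted immune factors, Csf1 and Ccl5 rose and Il33 and Tgfb1 fell (21.1% called, against 6.65% of all genes). Csf1, the growth factor of macrophages, was at 21.6 and 27.1 CPM with shNC and 48.8 and 48.5 CPM with shM2 (log2 fold change of 0.99 ± 0.15 (SE), adjusted p = 0.000346) and held throughout. Il33, an alarmin cytokine, was at 285 and 292 CPM with shNC and 194 and 202 CPM with shM2 (log2 fold change of -0.54 ± 0.10 (SE), adjusted p = 0.00389). Tgfb1 was at 14.9 and 26.3 CPM with shNC and 10.7 and 8.37 CPM with shM2 (log2 fold change of -1.12 ± 0.32 (SE), adjusted p = 0.0438). Il33 missed the threshold without shM2 replicate 1 (0.0636), Tgfb1 passed in 1 left-out fit (up to 0.4, without shNC replicate 2) and Ccl5, a T-cell chemokine at 6.22 and 10.8 CPM with shNC and 18.7 and 16.9 CPM with shM2, in none (up to 0.397, without shNC replicate 1). Vegfa, the vascular growth factor, was at 29.8 and 31.97 CPM with shNC and 43.1 and 35.9 CPM with shM2 and did not pass (log2 fold change of 0.35 ± 0.19 (SE), adjusted p = 0.291). Csf2, Cxcl1, Il23a and Igfbp6 had at most 7 counts in any of the 4 libraries and did not pass the filter, so that no difference was detectable at this depth. None of 19 tested interferon-stimulated genes and none of 14 tested MHC class I genes passed in edgeR. At an unadjusted p under 0.05 the counts were 0 and 1, and DESeq2 called 0 and 0. The smallest p in each list belonged to Ifi35 (7.54 and 5.002 CPM with shNC and 3.34 and 4.12 CPM with shM2, adjusted p = 0.324) and Tapbp (23.9 and 20.99 CPM with shNC and 31.3 and 27.8 CPM with shM2, adjusted p = 0.114).

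Some of the genes with the most reads in these cells were among the calls. In the upward direction they were Top2a, Cavin1, Timp2, Plec and Glg1, with log2 fold changes of 0.31, 0.59, 0.67, 0.37 and 0.36. Downward they included Ccnd1, Hmga2, Tuba1a and Mier1. Tuba1a, an alpha-tubulin, was at 2639 and 2603 CPM with shNC and 1151 and 1291 CPM with shM2 (log2 fold change of -1.10 ± 0.16 (SE), adjusted p = 0.000231). Mier1, a nuclear corepressor, was at 2006 and 2973 CPM with shNC and 1251 and 1153 CPM with shM2 (log2 fold change of -1.05 ± 0.15 (SE), adjusted p = 0.000258). Hmga2, an architectural chromatin factor, was at 2688 and 2533 CPM with shNC and 2009 and 2107 CPM with shM2 (log2 fold change of -0.34 ± 0.07 (SE), adjusted p = 0.00927). Tuba1a and Mier1 held throughout, Hmga2 passed in 1 left-out fit (up to 0.132, without shM2 replicate 1), and Cavin1, Plec, Glg1 and Top2a in none (up to 0.341, Top2a without shM2 replicate 1). The Mier1 levels of the shNC libraries lay far apart.

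Hairpin 4 gave a weaker knockdown in the same cells, and its comparison shares the shNC libraries. Against shNC, 254 genes passed (1.71%), 216 of them higher (1.45%) and 38 lower (0.256%). For the matrix genes Bgn and Col1a1 the values with shM4 lay between the groups: Bgn was at 14.6 and 17.1 CPM (log2 fold change of 1.39 ± 0.20 (SE), adjusted p = 0.000579) and Col1a1 at 5.83 and 5.80 CPM (log2 fold change of 1.58 ± 0.22 (SE), adjusted p = 0.000434). For Sox9 they lay close to those with shM2, at 260.3 and 281 CPM (log2 fold change of 1.26 ± 0.11 (SE), adjusted p = 6.67e-06), and likewise for Tgfb1i1 (22.04 and 17.4 CPM), Snai2 (35.8 and 36.6 CPM), Timp3 (76.03 and 74.7 CPM) and Chac1 (26.7 and 32.5 CPM). Sox10 was at 218 and 257 CPM (log2 fold change of -0.44 ± 0.10 (SE), adjusted p = 0.0374). Fdps with shM4 was at 168 and 179 CPM and did not pass (adjusted p = 0.538), and neither did Atf4 (408 and 426 CPM, 0.773).

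Tested directly, shM2 and shM4 differed in 73 genes (0.492%), 36 higher (0.242%) and 37 lower (0.249%) with shM2. Beside Myh9, these included Bgn (log2 fold change of 2.995 ± 0.17 (SE), adjusted p = 1.79e-08), Col1a1 (log2 fold change of 1.82 ± 0.15 (SE), adjusted p = 4.87e-06), Cavin2 (1.25, adjusted p = 0.00312), Kcnip1 (1.36, 0.00203), Pdpn (1.29, 0.0343) and Ankrd1 (0.82, 0.0258) among the rises. Trib3 was higher (0.68, 0.0329), and Fdps (-0.51, 0.0318), Tuba1a (-0.84, 0.0258) and Mcm4 (-1.06, 0.0168) were lower with shM2. For Sox9 the difference between the hairpins was 0.11 ± 0.10 (SE, adjusted p = 0.679) and for Sox10 -0.39 ± 0.10 (adjusted p = 0.099), which does not show that the hairpins act alike on them. Leaving out 1 library moved the 73 genes to between 14 and 185 (14 without shM2 replicate 1 or 2, 19 without shM4 replicate 2 and 185 without shM4 replicate 1), so the extent of this difference is poorly fixed.

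The same hairpin was also introduced into cells with ectopic WT or dHLH Bmal1, each with shNC libraries of its own. Myh9 went from 969 and 919 to 226 and 233 CPM in WT cells and from 881 and 859 to 283 and 256 CPM in dHLH cells, so that all shM2 libraries lay between 223 and 283 CPM. The knockdown on the log2 scale was smaller in EV than in WT cells (difference of 0.52, adjusted p = 0.0295). With this hairpin, 707 genes passed in WT cells (4.76% of those tested; 2.35% higher and 2.41% lower) and 83 in dHLH cells (0.559%; 0.296% higher and 0.263% lower). Of the 623 genes that rose in EV cells, 91 also rose in WT cells (14.6% of them and 26.1% of the 349 that rose there) and 59 fell. Of the 365 that fell, 40 fell in WT cells (11.2% of the 358 that fell there) and 7 rose. In dHLH cells 15 of the 623 rose and 9 fell, and 11 of the 365 fell and 5 rose. The median log2 fold change of the 623 genes was 0.94 in EV cells, where they were selected, and 0.05 in WT and 0.04 in dHLH cells.

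The difference of the hairpin 2 effect was tested directly. It differed between EV and WT cells for 769 genes (5.18%), with the higher value in EV cells for 3.43% and the lower for 1.75%. It differed between EV and dHLH cells for 489 genes (3.29%; 2.2% and 1.1%). Sox9 was already high in the WT and dHLH controls, at 309 and 356 and 323 and 326 CPM, and reached 396 and 391.8 and 362 and 320.2 CPM with shM2 (log2 fold changes of 0.24 ± 0.10 and 0.07 ± 0.10, SE). These libraries all lay above the 290.2 and 293 CPM of EV cells with shM2. Bgn went from 116 and 139 to 413 and 435 CPM in WT cells (log2 fold change of 1.73 ± 0.15 (SE), adjusted p = 1.05e-06). It went from 346 and 345 to 715 and 566 CPM in dHLH cells (log2 fold change of 0.89 ± 0.14 (SE), adjusted p = 0.00745). The EV cells with shM2, at 128 and 125 CPM, thus lay within the range of the WT controls. Col1a1 went from 47.6 and 47.5 to 107 and 114 CPM and from 193 and 177 to 234 and 248 CPM (log2 fold changes of 1.22 ± 0.12 and 0.38 ± 0.11). All of these libraries were above the EV libraries.

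**Figure D4:**
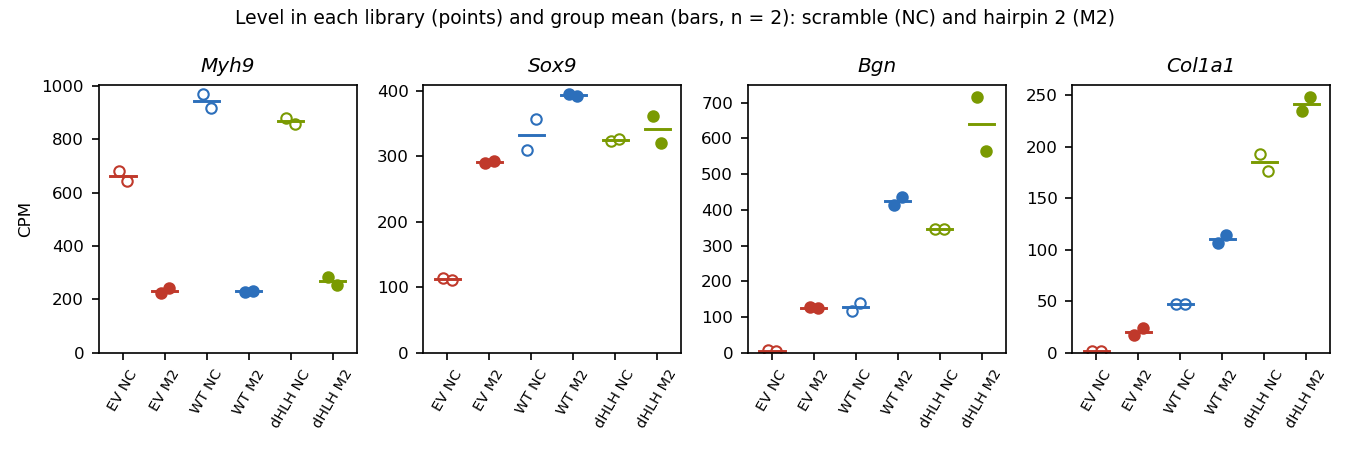
CPM (vertical axes, from 0) of Myh9, Sox9, Bgn and Col1a1 in each library of EV, WT and dHLH cells; open points carry shNC, filled points shM2, and bars are group means. Myh9 falls to like levels in all 3 kinds of cell, while Sox9, Bgn and Col1a1 start lowest in the EV controls and rise in EV cells with shM2.

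Some other genes moved in EV cells without a like change in the other cells, while Sox10, Adamts1 and, in WT cells, Csf1 moved in the same direction. Klf4 was at 536 and 541 CPM in WT and 622 and 683 CPM in dHLH controls, while with shM2 it was at 373 and 367 CPM in WT cells (log2 fold change of -0.54 ± 0.12 (SE), adjusted p = 0.0107). In dHLH cells with shM2 it was at 546 and 447 CPM (log2 fold change of -0.40 ± 0.12 (SE), adjusted p = 0.181). Ankrd1 was at 42.95 and 40.3 CPM and 73.04 and 73.2 CPM in these controls and at 54.7 and 53.8 CPM and 51.1 and 56.8 CPM with shM2, and did not pass in either. Timp3 fell in both, from 256 and 297 to 95.4 and 94.3 CPM and from 369.7 and 399 to 237 and 227 CPM (-1.54, adjusted p = 6.29e-08, and -0.73, 0.00208), against its rise in EV cells. Nupr1 fell in WT cells from 73.2 and 68.4 to 35.1 and 32.4 CPM (log2 fold change of -1.07 ± 0.12 (SE), adjusted p = 3.71e-05). Sox10 fell in the other cells as well, from 96.2 and 96.8 to 33.7 and 35.7 CPM in WT cells (log2 fold change of -1.48 ± 0.11 (SE), adjusted p = 2.39e-07). It fell from 22.03 and 25.6 to 13.98 and 11.9 CPM in dHLH cells (log2 fold change of -0.90 ± 0.13 (SE), adjusted p = 0.003), where the controls were already below EV cells with shM2. Csf1 rose in WT cells as in EV cells (log2 fold change of 1.27 ± 0.14 (SE), adjusted p = 1.93e-05). Adamts1 fell in WT (-0.87, 0.000468) and dHLH cells (-0.70, 0.0189).

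**Figure D5:**
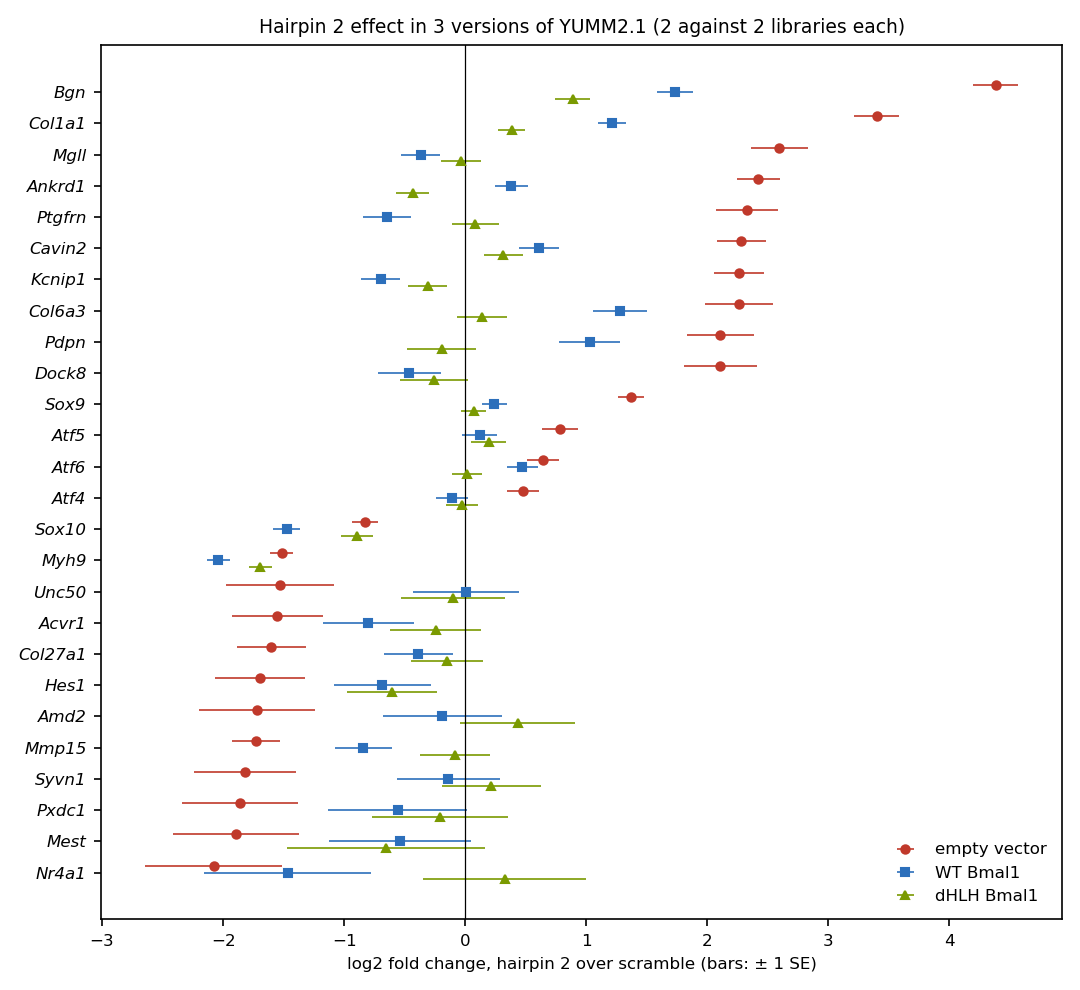
Log2 fold change of hairpin 2 over scramble (horizontal axis, bars ± 1 SE) in EV, WT and dHLH cells for the genes that the study names or that changed most in EV cells and that passed the threshold there. Bgn, at 4.38 in EV, 1.73 in WT and 0.89 in dHLH cells, and the genes from Col1a1 to Sox9 lie farther right in EV cells than in the others, while Myh9 and Sox10 are negative in all 3.

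The sterol and fatty acid list, with 9 falls in EV cells, had 2 rises and no fall in WT cells (Elovl6, log2 fold change of 0.57 ± 0.16 (SE), adjusted p = 0.0465, and Sc5d, log2 fold change of 0.58 ± 0.14 (SE), adjusted p = 0.0202) and no call in dHLH cells, with medians of 0.11 and 0.09. In the test of the difference, 7 of its 26 members were lower in EV than in WT cells (26.9%, beside 1.75% of all genes). Lower than in dHLH cells were 4 (15.4%, beside 1.1% of all genes), and none was higher. The ATF4 list, with 10 rises in EV cells, had 1 rise and 2 falls in WT cells and none in dHLH cells. In the test of the difference, 2 of its 23 members were higher in EV than in WT cells and 2 higher than in dHLH cells (8.7% each). Of all genes, 3.43% and 2.2% were higher in these tests. Of the 21 collagens and proteoglycans, 5 rose and 2 fell in WT cells and 1 rose in dHLH cells. Of all genes, 2.35% rose and 2.41% fell in WT cells, and 0.296% rose in dHLH cells. In the test of the difference, 3 of the 21 were higher in EV than in WT cells and none lower, and 5 were higher and 1 lower than in dHLH cells. Beside this, 3.43% of all genes were higher and 1.75% lower than in WT cells, and 2.2% and 1.1% than in dHLH cells.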

How the data were processed

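RNA of YUMM2.1 cells was measured with 3′ tag libraries (QuantSeq FWD) from polyadenylated RNA. The deposited values are estimated counts per gene, which the authors made by aligning reads to mm10 with bowtie2 and running RSEM with an Ensembl transcriptome, and which the table holds as whole numbers. The Ensembl release and the strand setting are not given in the sources used here, so counts of genes that overlap another gene may include its reads. Groups came from the sample labels. Symbols were taken from GENCODE M21 for 99.63% of the 51789 genes, and promoter windows from RefSeq (GRCm38.p6).

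The 18 libraries of the hairpin experiment, with 3643332 to 17485144 counts each, were fitted together as 9 groups with edgeR 4.0.16 in R 4.3.3 (TMM scaling, filterByExpr by group, quasi-likelihood F test, Benjamini-Hochberg adjustment over 14848 genes, called at an adjusted p under 0.05). CPM are counts scaled to the library total times its TMM factor. Contrasts were hairpin against scramble, hairpin 2 against hairpin 4, and the difference of the hairpin 2 effect between cells. An exact permutation test of 2 against 2 libraries cannot go below p = 0.333 and was not used. Test scripts were tested on simulated data with known changes.

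The members, gene lists and tests were chosen with earlier results of these data known. Named genes were those the study names for the knockdown, the 10 largest changes in each direction (mean of at least 50 counts, protein-coding, groups apart), up to 4 called members with the smallest p of each of 18 pathway lists (else the member with the smallest p) plus members whose role is explained, and the 5 called genes with the highest mean CPM in each direction. Alternatives were DESeq2 1.42.0 and its size factors, other filters, other sets of libraries, each library left out in turn, a log2 fold change of at least 1 as a further condition, and a replicate block. Hairpin sequences were not used here, and some members of the lists and named genes are counted but not reported here by name.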

Additional observations from a re-analysis of the deposited data

Results flagged for a closer look

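Each value here is the log2 fold change of hairpin 2 over scramble in EV cells minus that in the other cells, with the adjusted p of edgeR's quasi-likelihood test of that difference in parentheses, from 2 libraries a group. A positive value means a higher value in EV cells. These genes drew attention because the test of the difference itself passed. They were taken from the named genes only, many of which were chosen by their change in these EV libraries. The sign of a difference therefore follows in part from that choice. Genes named only as list members or for their high level are given only where the tests against WT and against dHLH cells both passed. Both tests share the EV libraries, so for those genes a like result in both comparisons follows in part from this condition. No cause was tested, and a difference can come from the level in the controls as well as from that with the knockdown.

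Among matrix genes, the differences from WT cells were Bgn 2.65 (1.94e-06), Col1a1 2.19 (1.09e-05), Fn1 1.19 (9.86e-06), Lama4 -1.06 (0.000297), Itga3 1.13 (0.0132), Timp2 0.69 (0.0431) and Timp3 2.29 (5.46e-08). Those from dHLH cells were Bgn 3.49 (1.97e-07), Col1a1 3.02 (4.4e-07), Col6a3 2.12 (0.00186), Fn1 1.04 (9.41e-05), Lama4 -1.31 (9.05e-05), Itga3 1.23 (0.0107), Timp2 0.77 (0.0335), Timp3 1.47 (2.23e-05) and Mmp15 -1.64 (0.014). Apart from Lama4 and Mmp15, all of these were positive.

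Among transcription factors, the differences from WT cells were Sox9 1.13 (0.000153), Sox10 0.65 (0.0194), Klf4 2.00 (9.46e-07), Junb 1.08 (0.0278) and Jund 0.92 (0.0388). Those from dHLH cells were Sox9 1.30 (7.27e-05) and Klf4 1.85 (5.57e-06). Junb and Jund did not pass between shM2 and shNC in EV cells.

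Among genes of actin, adhesion and the cytoskeleton, the differences from WT cells were Myh9 0.52 (0.0295), Tgfb1i1 1.95 (0.000193), Tpm2 4.31 (0.0108), Ankrd1 2.04 (2.08e-05), Cavin2 1.67 (0.000827) and Tuba1a -0.83 (0.0348). Those from dHLH cells were Tgfb1i1 2.09 (0.000138), Tpm2 3.97 (0.0243), Ankrd1 2.85 (9.58e-07), Cavin2 1.96 (0.000268) and Tuba1a -0.98 (0.0195). Tpm2 rests on few counts in the EV controls.

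Among surface, signalling and cell cycle genes, the differences from WT cells were Mgll 2.96 (5.69e-06), Ptgfrn 2.97 (1.97e-05), Kcnip1 2.96 (1.97e-06), Dock8 2.57 (0.000831), Phlda1 -1.08 (0.00209), Il33 -0.66 (0.0155) and Ccna2 -1.02 (0.0122). Those from dHLH cells were Mgll 2.63 (5.17e-05), Ptgfrn 2.25 (0.000571), Kcnip1 2.57 (2.86e-05), Pdpn 2.30 (0.00294), Dock8 2.36 (0.00321), Phlda1 -0.93 (0.00921), Il33 -0.93 (0.0016) and Ccna2 -0.97 (0.0219).

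Among stress, hypoxia and lipid genes, the differences from WT cells were Egln3 1.06 (0.0418), Adm 1.76 (0.00607), Ndrg1 1.14 (0.000799), Nupr1 2.34 (7.64e-07), Fdps -1.02 (0.000304) and Elovl6 -1.45 (0.00074). Those from dHLH cells were Egln3 1.81 (0.00187), Adm 1.70 (0.0118), Ndrg1 0.84 (0.0126), Nupr1 1.52 (0.000134), Fdps -0.82 (0.00332) and Elovl6 -1.14 (0.00754). The lipid genes were negative and the other 4 positive. Passing in both comparisons was the condition for listing these genes.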

How the results depend on the processing

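With 2 libraries a group, the counts of calls moved with the libraries and genes in the fit, while no named gene past the threshold changed direction. Of 672 values of 84 named genes under the settings that left out no library, 635 kept their side of the threshold, 35 fell short of it, 2 came past it (Jund in the fits of 8 and of 4 libraries) and none changed sign. With each library left out, 219 of 336 kept it, 117 fell short and no named gene past the threshold changed sign. Junb (-0.06) and Srf (0.01) without shNC replicate 2 and Mrtfa (-0.30) without shM2 replicate 2, which did not pass in any fit, took the opposite sign. Of 75 named genes past the threshold, 37 passed in all 4 left-out fits. Fitting all 40 libraries kept 56 of the 75 past the threshold, and DESeq2 kept 74. Sox9, Axl, Timp2, Tgfb1 and Ccl5 were among those that missed it with 40 libraries.

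The 988 genes of shM2 against shNC became 2016 in a fit of 8 libraries (14027 genes tested), 2163 in a fit of the 4 libraries alone (13193 tested), 1542 with no filter, 374 with a log2 fold change of at least 1, and 337 to 442 with a library left out. The 254 of shM4 became 118 with 40 libraries, 430 with no filter, 120 with the minimum change and 110 to 253 with a library left out. The 73 between the hairpins became 359 with DESeq2, 742 with no filter, 31 with the minimum change and 14 to 185. The 707 in WT cells became 284 with the minimum change and 222 to 303. The 83 in dHLH cells became 176 with DESeq2, 269 with no filter, 30 with the minimum change and 12 to 29. The differences between cells became 1313 (WT) and 950 (dHLH) with no filter, 434 and 287 with the minimum change, and 312 to 550 and 205 to 710 with a library left out. Apart from the number of genes or libraries that each setting changes, the cause was not tested.

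Replicate numbers did not pair the libraries: same-numbered deviations of EV shNC and shM2 correlated at -0.005 over 14848 genes (-0.14 to 0.20 between groups), and a replicate block kept 68 of the 75 named genes and gave 895 genes for shM2 against shNC, 870 of them shared with the 988. The block gave 241 genes for shM4, 70 between hairpins, 634 in WT cells, 73 in dHLH cells, and 690 and 432 for the differences from WT and dHLH cells.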
